A study of Mus musculus with 4 samples.

Results

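Antibodies are assembled from a heavy chain and a light chain (kappa or lambda), each made of a constant region joined to a variable domain that B cells build by recombining V, D and J gene segments. The constant gene of the heavy chain sets the isotype: naive B cells use Ighm (IgM) and Ighd (IgD), and class switching moves a cell to an IgG, IgA or IgE gene. Plasma cells secrete antibody and carry far more immunoglobulin RNA per cell than resting B cells, and the heart muscle itself makes none. The immunoglobulin genes described here are those of the deposited gene table whose symbols name a heavy, kappa or lambda V, J or constant gene, or Jchain, with a summed count of at least 20 over 4 libraries. They were thus chosen by name and by their own counts, so their levels are given as a description. Of 28723 genes in the table, 201 had such a symbol and 132 reached the minimum. They comprise 7 constant, 49 V and 4 J genes of the heavy chain, 1 constant, 58 V and 4 J genes of kappa, 3 constant, 3 V and 2 J genes of lambda, and Jchain, which links IgM and IgA units into polymers.

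RNA came from whole hearts of C57BL/6J mice kept without intervention under specific pathogen-free conditions. The aged group was 12 months old (2 libraries, titled FLOX5 and FLOX6, here aged replicates 1 and 2) and the young group 8 weeks old (2 libraries, titled C4 and C5, here young replicates 1 and 2). The labels give all 4 as wild type and untreated, and name no floxed allele or Cre despite the FLOX titles. Whether the libraries stem from different mice is not stated, and p-values here cover no more than the spread among the 4 samples, which may be technical.

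The libraries held 51328364 to 63828074 counts. The label of heart was borne out by its markers: 8 heart muscle genes summed to 62370 and 60880 CPM (counts scaled to a common library total) in aged replicates 1 and 2, and to 57380 and 57060 CPM in young replicates 1 and 2. Of these 8 genes, 3 were called higher and 4 lower at 12 months by edgeR's quasi-likelihood test, against 20.1% and 17.5% of all tested genes. Their sum thus stands for no common change. Summed atrial muscle genes were higher in the aged libraries (4625 and 1892 CPM, against 303.2 and 295.6 CPM in the young), as were summed mesothelial genes (87.35 and 84.14 CPM, against 11.78 and 16.4 CPM). Aged replicate 2 stood apart from the other 3 libraries in the immunoglobulin genes, so the values are given by library, and tests also without it where that changed a call. Leaving out a library leaves a single one in its group, so the SE and p-values of such fits hold no spread within that group.

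The J segments are shown first, because each is the short stretch that joins a V segment to the constant region and its count is a separate reading of the same chains. The sequences are those of the GENCODE M21 transcripts on mouse build GRCm38, 5′ to 3′ on the coding strand. All 132 genes matched that annotation by identifier, symbol and coordinates. Capitals mark the codons of the Phe-Gly-X-Gly motif in kappa J segments and of the Trp-Gly-X-Gly motif in heavy J segments, which mark where the framework after the third antigen-binding loop begins. The kappa J segments lie on the plus strand, Igkj1 at chr6:70722562-70722599, Igkj2 at chr6:70722916-70722954, Igkj4 at chr6:70723548-70723585 and Igkj5 at chr6:70723886-70723923. The heavy J segments lie on the minus strand, Ighj1 at chr12:113429781-113429833, Ighj2 at chr12:113429468-113429515, Ighj3 at chr12:113429085-113429132 and Ighj4 at chr12:113428514-113428567.
Igkj1: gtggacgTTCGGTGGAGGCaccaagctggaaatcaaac
Igkj2: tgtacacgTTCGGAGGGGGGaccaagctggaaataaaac
Igkj4: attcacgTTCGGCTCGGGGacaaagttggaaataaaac
Igkj5: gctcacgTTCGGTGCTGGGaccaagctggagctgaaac
Ighj1: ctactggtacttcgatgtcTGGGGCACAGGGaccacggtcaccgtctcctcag
Ighj2: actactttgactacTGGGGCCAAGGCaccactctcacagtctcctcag
Ighj3: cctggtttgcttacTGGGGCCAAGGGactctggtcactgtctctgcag
Ighj4: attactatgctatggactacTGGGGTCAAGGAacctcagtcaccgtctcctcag

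The second set shows the last 90 bases of the 3 kappa and 3 heavy V segments with the most counts in aged replicate 2. Capitals mark the last in-frame cysteine codon, after which the germline contributes the first part of the third antigen-binding loop. All lie in the V exon. Igkv3-2 is on the plus strand at chr6:70698978-70699067. The other 5 stretches are on the minus strand, Igkv4-91 at chr6:68768555-68768644, Igkv8-16 at chr6:70386672-70386761, Ighv1-53 at chr12:115158403-115158492, Ighv12-3 at chr12:114366521-114366610 and Ighv14-4 at chr12:114176438-114176527. The 3 kappa stretches carry 23 to 25 germline bases after the cysteine codon and the heavy ones 6 to 11.
Igkv3-2: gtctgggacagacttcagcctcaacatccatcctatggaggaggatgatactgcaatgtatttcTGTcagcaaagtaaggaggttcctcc
Igkv4-91: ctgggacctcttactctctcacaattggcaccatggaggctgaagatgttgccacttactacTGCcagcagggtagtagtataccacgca
Igkv8-16: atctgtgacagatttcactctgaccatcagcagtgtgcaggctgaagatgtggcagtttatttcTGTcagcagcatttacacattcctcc
Ighv1-53: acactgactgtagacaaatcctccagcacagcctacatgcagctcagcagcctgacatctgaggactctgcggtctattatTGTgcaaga
Ighv12-3: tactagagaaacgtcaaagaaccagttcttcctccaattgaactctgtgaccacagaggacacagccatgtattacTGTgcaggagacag
Ighv14-4: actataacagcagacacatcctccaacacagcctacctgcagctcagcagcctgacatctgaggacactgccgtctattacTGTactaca

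Immunoglobulin RNA was high in 1 of the 2 aged libraries. The 132 genes summed to 2643 counts in aged replicate 1 and 137863 in aged replicate 2, against 2308 and 2808 counts in young replicates 1 and 2. This was 47.7 and 2686 CPM in the aged libraries, against 43.66 and 43.99 CPM in the young. Aged replicate 2 stood 61.3-fold above the mean of the young libraries and 56.3-fold above aged replicate 1. Aged replicate 1 stood 1.09-fold above the young mean. Both aged libraries were above both young ones, aged replicate 1 only narrowly. In bulk RNA, fewer cells of a type and less RNA per cell cannot be told apart.

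The excess held in each class of gene. Relative to the young mean, aged replicate 2 was 51.6-fold higher in heavy constant counts, 88.7-fold in heavy V counts and 52.6-fold in heavy J counts. For kappa the ratios were 83.7-fold for the constant gene, 79.4-fold for V and 175-fold for J counts, the last over only 11 and 10 counts in the young libraries. Lambda constant and V counts were 26.5-fold and 86.5-fold higher, and Jchain 42.6-fold. In aged replicate 1 the same ratios ran from 0.47 (lambda constant) to 2.12 (lambda V), both over fewer than 50 counts a library. Without Ighm, the most abundant of the genes, the sum was still 57.7-fold above the young mean in aged replicate 2.

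Gene by gene, 131 of the 132 were highest in aged replicate 2 (99.2%), against 28.6% of the 20766 genes of the table with a summed count of at least 20. In 123 (93.2%) aged replicate 2 exceeded every other library more than 4-fold, against 1.54% of those 20766 genes. Both aged libraries exceeded both young ones in 28 (21.2%), against 32.2% of all genes. Aged replicate 1 lay above both young libraries in 28 genes and below both in 31 (23.5%), against 39% and 42.4% of all genes. The gene not highest in aged replicate 2 was Ighv7-1, with 3 and 4 counts in the aged libraries and 6 and 7 in the young. It was also the one gene lower in both aged libraries, against 29.1% of all genes. The minimum itself was mostly met through aged replicate 2: only 28 of the 132 had a summed count of at least 20 in the other 3 libraries. In those 3 libraries 31 had no count, and 66 had none in aged replicate 1. All these shares are thus partly set by that choice. A gene without a count in aged replicate 1 cannot lie above the young libraries there. The shares therefore do not show how often the aged libraries agree. Just inside the minimum, Ighv1-58 had 20 counts, all in aged replicate 2, and just outside it Ighv1-15 had 18, again all there. The others nearest to it were Igkv15-103 (20 in all) inside, and Igkv12-98 (18) and Ighv1-34 (17) outside.

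**Figure D1:**
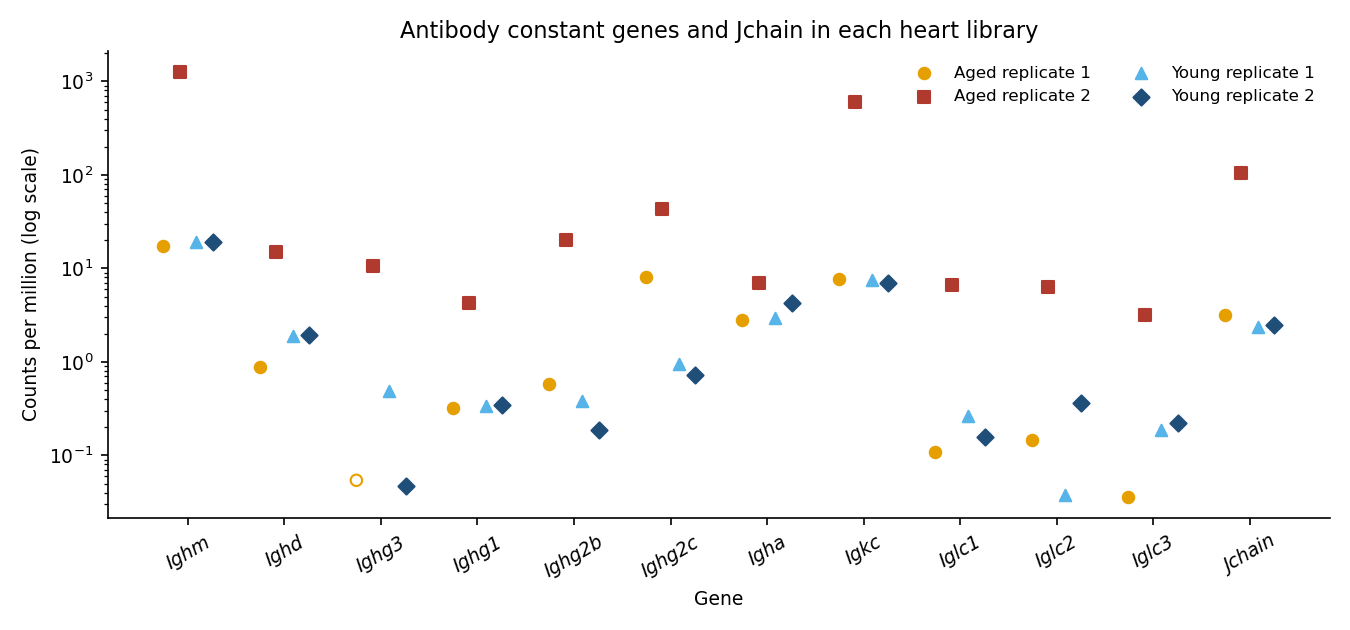
CPM on a log scale (vertical axis) of 11 constant genes and Jchain (horizontal axis) in each of the 4 libraries; the open circle marks a gene without a count, drawn at the floor of 3 counts. Aged replicate 2 is highest for every gene, by the least for Igha, and aged replicate 1 lies well above both young libraries only for Ighg2c.

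Ighm, which encodes the constant region of IgM, had 966 and 64639 counts in aged replicates 1 and 2, against 1015 and 1212 in young replicates 1 and 2. In FPKM, which also corrects for gene length, this was 8.56 and 617 in the aged libraries, against 9.29 and 9.17 in the young. Only aged replicate 2 was high, and aged replicate 1 lay below both young libraries. The group means were 313 ± 430 FPKM at 12 months and 9.23 ± 0.0877 FPKM at 8 weeks (SD, n = 2 libraries each). With edgeR's quasi-likelihood test and Benjamini-Hochberg adjustment the log2 fold change was 5.01 ± 1.68 (SE, adjusted p = 0.0604), and without aged replicate 2 it was -0.15 ± 0.14 (adjusted p = 0.425).

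Igkc, the kappa constant gene, followed the same order, with 422 and 31216 counts in the aged libraries against 396 and 449 in the young. Per length it reached 1057 FPKM in aged replicate 2 and 12.1 to 13.2 FPKM in the other 3 libraries. Its log2 fold change was 5.35 ± 1.74 (edgeR adjusted p = 0.0554), and 0.05 ± 0.20 without aged replicate 2 (adjusted p = 0.86). Igkc, Igkj1, Igkj2, Igkj4 and Igkj5 overlap Gm30211 on the same strand, and reads may be shared with it. Jchain had 176 and 5315 counts in the aged libraries against 125 and 159 in the young. Both aged libraries were above both young ones, but the log2 fold change of 4.40 ± 1.43 did not pass (edgeR adjusted p = 0.0549), and without aged replicate 2 it was 0.37 ± 0.29 (adjusted p = 0.347).

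Ighg2c, the constant gene of IgG2c, was the exception among the constant genes. It had 450 and 2233 counts in aged replicates 1 and 2, against 50 and 46 in young replicates 1 and 2. Both aged libraries were far above both young ones. Its level was 18.0 ± 17.4 FPKM at 12 months and 0.569 ± 0.111 FPKM at 8 weeks (SD, n = 2 each). Ighg2c rose by a log2 fold change of 4.91 ± 0.84 (edgeR adjusted p = 0.00705). Without aged replicate 2 the log2 fold change was 3.27. Without young replicate 2 the adjusted p was 0.052, with a log2 fold change of 4.71.

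The other switched isotypes differed from one another. Ighg2b, for IgG2b, had 32 and 1032 counts in the aged libraries against 20 and 12 in the young, and rose by 5.15 ± 1.57 on the log2 scale (edgeR adjusted p = 0.0459). Without aged replicate 2 its difference was 1.03 ± 0.60 (adjusted p = 0.215). Ighg1, for IgG1, had 18 and 217 counts in the aged libraries against 18 and 22, and lay under the mean of 1 FPKM needed for the test. Ighg3, for IgG3, had 0 and 540 counts against 26 and 3, so the library without a count and the one with the most were both aged. Its 0 of 55411355 counts allows up to 0.0541 CPM, for counting error only.

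Igha, for IgA, the isotype of mucosal secretions, departed least from the young libraries, with 154 and 357 counts in the aged libraries against 156 and 273 in the young. Its log2 fold change was 0.38 ± 0.44 (edgeR adjusted p = 0.525). Ighd, which is spliced from the same primary transcript as Ighm in naive B cells, had 49 and 769 counts against 99 and 123. Its log2 fold change was 2.00 ± 1.08 (adjusted p = 0.19), and without aged replicate 2 it was lower at 12 months (-1.12 ± 0.37, adjusted p = 0.0487). The lambda constant genes Iglc1, Iglc2 and Iglc3 had 343, 327 and 164 counts in aged replicate 2. Each had 2 to 23 counts in the other libraries, and none passed (adjusted p = 0.0973, 0.111 and 0.179). Ighe, for IgE, had 4 counts, all in aged replicate 2, and was under the minimum.

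Of the 132 genes, 70 reached the mean of 1 FPKM and were tested, and 9 of them rose at 12 months (12.9%), against 20.1% of all 12027 tested genes. None was called lower with edgeR's quasi-likelihood test, against 17.5% of all tested genes. At an unadjusted p below 0.05, 50 were higher (71.4%) and 0 lower, against 25.6% and 23% of all tested genes. DESeq2 called 30 higher (42.9%) and 0 lower, against 21.5% and 19% of all tested genes. Only 7 of the 70 averaged 1 FPKM or more in the young libraries, so most were tested because of their level in aged replicate 2, and the direction of these calls is set by that choice. The median log2 fold change was 5.10 over the 70 and 0.01 over all tested genes. Besides Ighg2c and Ighg2b, the called genes were 7 V genes. Iglv1 had 19 and 623 counts in the aged libraries against 5 and 7 in the young (5.84 ± 1.65 on the log2 scale, adjusted p = 0.0363). Igkv1-110 had 26 and 159 against 10 and 6 (3.60 ± 0.98, adjusted p = 0.0318). Igkv12-89 had 12 and 132 against 0 and 0, Ighv5-15 had 7 and 167 against 0 and 0, and Ighv1-42 had 6 and 315 against 0 and 0. Ighv1-80 (7 and 167 against 2 and 0) and Igkv12-44 (8 and 203 against 2 and 2) completed the set. What these have in common is a count above the young libraries in aged replicate 1 as well.

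The calls turned on which library was in the fit, and a fit without a library has a single one left in its group. The 70 genes were admitted by a mean that includes aged replicate 2, and only 8 averaged 1 FPKM or more over the other libraries. The shares without aged replicate 1 or aged replicate 2 are thus largely set by that choice. Without aged replicate 1, 69 of the 70 passed as higher (98.6%) and 0 as lower, against 17.4% and 16% of all tested genes. Without aged replicate 2, 2 passed as higher (2.86%, against 20.9%), Ighg2c and Igkv12-89, and 3 as lower (4.29%, against 17.8%), Ighd, Igkv3-10 and Igkv1-117. Igkv3-10 had 0 and 76 counts in the aged libraries against 13 and 8, and Igkv1-117 had 0 and 126 against 6 and 16. Igkv1-117 shares 16.1% of its 100-base windows with Igkv1-110, which was higher in aged replicate 1, so reads of this pair may have been split between them. With a summed count of at least 20 as the minimum, 3 of 132 passed as higher (10.8% of all genes), and with no minimum 2 of 132 (6.88%). With that minimum and without aged replicate 2, a fit added after the data were seen, 1 of 132 passed (13.2%). Each limma fit on FPKM called 1 of 70 higher, against 21.2% of all tested genes with a pseudocount of 1, 21.5% with 0.1 and 31.6% after rescaling to one sum. DESeq2 size factors left 9 of 70 (19.7%). Without young replicate 1 or young replicate 2, 1 and 0 of 70 passed as higher (9.87% and 10.5% of all tested genes).

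**Figure D2:**
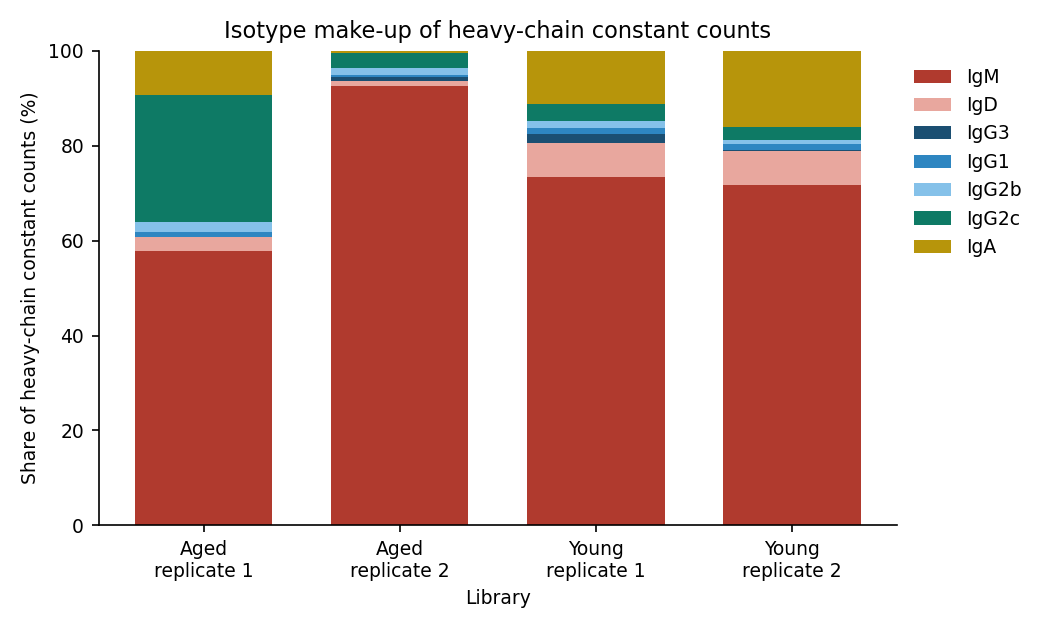
Share of heavy-chain constant counts (vertical axis, percent) taken by each isotype in the 4 libraries (horizontal axis). IgM takes 92.62% in aged replicate 2, IgG2c takes 26.96% in aged replicate 1, and IgD and IgA shares are largest in the young libraries.

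The isotype make-up differed between the 2 aged libraries and between each of them and the young pair. IgM took 57.88% of heavy constant counts in aged replicate 1 (95% Wilson interval 55.49% to 60.23%) and 92.62% in aged replicate 2 (92.43% to 92.81%). In young replicates 1 and 2 it took 73.34% (70.95% to 75.6%) and 71.67% (69.48% to 73.77%). One aged library thus lay below the young pair and the other above it, with no overlap of the intervals, which cover counting error only. IgG2c took 26.96% (24.89% to 29.14%) and 3.2% (3.072% to 3.333%) in the aged libraries, against 3.613% and 2.72% in the young. The larger Ighg2c count of aged replicate 2 was therefore no larger a share of its heavy constant counts than in young replicate 1. In aged replicate 1 the ratio of Ighg2c to Ighm counts was 0.466, and it was 0.0345 in aged replicate 2, against 0.0493 and 0.038 in the young libraries.

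IgA, IgD and IgG1 took smaller shares in both aged libraries than in either young one. IgA took 9.227% and 0.5116% in aged replicates 1 and 2, against 11.27% and 16.14% in young replicates 1 and 2. The interval of aged replicate 1 (7.931% to 10.71%) overlaps that of young replicate 1 (9.712% to 13.05%). IgD took 2.936% and 1.102% in the aged libraries, against 7.153% and 7.274% in the young, and here the aged intervals lie wholly below the young ones. IgG1 took 1.078% (0.6833% to 1.698%) and 0.3109% (0.2723% to 0.3551%) in the aged libraries, against 1.301% in each of the young ones, and the interval of aged replicate 1 overlaps theirs. The ratio of Ighm to Ighd counts was 19.7 and 84.1 in the aged libraries, against 10.3 and 9.85 in the young. Kappa took 96.35% (94.15% to 97.74%) and 97.4% (97.22% to 97.57%) of light constant counts in the aged libraries. In the young libraries it took 93.84% (91.13% to 95.76%) and 90.52% (87.63% to 92.8%). The kappa intervals of aged replicate 1 and young replicate 1 overlap.

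In aged replicate 2, Igkj1 had 1207 of 1639 kappa J counts (73.64%, interval 71.46% to 75.72%), Igkj5 191, Igkj2 133 and Igkj4 108. The heavy J segments were more even, with 207 counts for Ighj2, 199 for Ighj4, 110 for Ighj1 and 107 for Ighj3. The other 3 libraries held 10 to 13 kappa J counts and 12 to 15 heavy J counts each. Igkj1 led the kappa J counts there too, with 7 in each. Igkj2 took 8.115% (6.889% to 9.537%) in aged replicate 2. It took 30.77% (12.68% to 57.63%) in aged replicate 1 and 36.36% (15.17% to 64.62%) in young replicate 1, on 4 counts each. Igkj4 took 6.589% (5.487% to 7.895%) in aged replicate 2 and 30% (10.78% to 60.32%) in young replicate 2, on 3 counts. These intervals do not overlap those of aged replicate 2, but the counts are few. Igkj2 had no count in young replicate 2 (0% to 27.75%). Igkj4 had none in aged replicate 1 (0% to 22.81%) and young replicate 1 (0% to 25.88%). The intervals of these libraries do overlap those of aged replicate 2. Differences in J use were not tested.

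**Figure D3:**
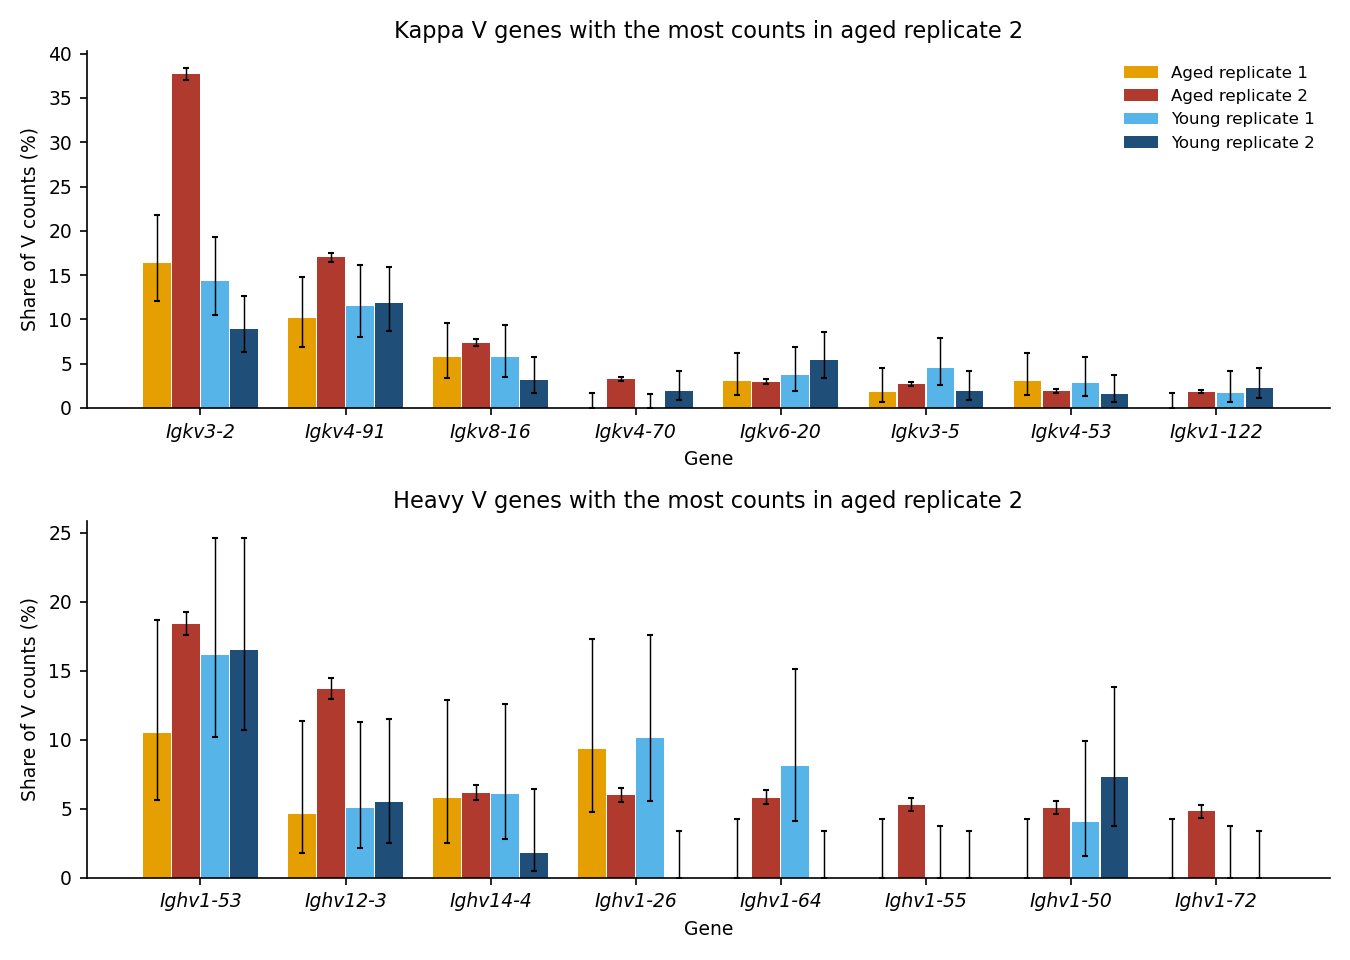
Share of kappa V counts (upper panel) and heavy V counts (lower panel) in percent, for the 8 V genes with the most counts in aged replicate 2, in each library; bars are shares and lines 95% Wilson intervals. Igkv3-2 reaches 37.73% in aged replicate 2, and Ighv1-53 leads the heavy V genes in all 4 libraries.

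Kappa V counts were concentrated on fewer genes in aged replicate 2. All 58 kappa V genes had a count there, against 29 in aged replicate 1 and 30 and 36 in the young libraries. Of the 58, 56 had at least 20 counts in aged replicate 2, against 3 in aged replicate 1 and 2 and 3 in the young libraries. The minimum over summed counts thus largely set this difference. The effective number of genes (the inverse Simpson index, which is the number of equally used genes that would give the same concentration) was 5.49 in aged replicate 2. It was 14.2 in aged replicate 1 and 16.7 and 20.8 in the young libraries. These rest on 226 and 19398 kappa V counts in the aged libraries and 244 and 313 in the young. Igkv3-2 had 37 and 7318 counts in the aged libraries against 35 and 28 in the young. Its share was 16.37% (12.12% to 21.75%) and 37.73% in the aged libraries, against 14.34% and 8.946% in the young. Igkv4-91 had 23 and 3297 counts against 28 and 37, a share of 17% in aged replicate 2 and of 10.18% to 11.82% in the other 3 libraries.

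The next kappa genes in aged replicate 2 were Igkv8-16 with 1429 counts, Igkv4-70 with 626 and Igkv6-20 with 576. Igkv3-2 and Igkv4-91 share no 100-base window with any other annotated transcript. Of the windows of Igkv8-16, 62.9% occur also in Gm43218, and Igkv6-20 shares 55.8% with Igkv6-29, so the counts of these genes are uncertain. Over families, Igkv3 took 22.12% and 42.31% of kappa V counts in the aged libraries, against 29.92% and 14.38% in the young, and Igkv4 took 19.91% and 27.58%, against 15.98% and 20.77%. The young libraries differed from each other in the Igkv3 share by more than aged replicate 2 exceeded the higher of them.

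Heavy V counts were not more concentrated in aged replicate 2. The effective number was 14.0 and 13.1 genes in the aged libraries, against 11.4 and 12.9 in the young, on 86 and 8155 counts against 99 and 109. Ighv1-53 led in every library, with 9 and 1501 counts in the aged and 16 and 18 in the young, or 10.47% and 18.41% against 16.16% and 16.51%. These intervals overlap. Ighv12-3 was second in aged replicate 2, with 4 and 1116 counts in the aged libraries against 5 and 6 in the young. Its share there was 13.68% (12.96% to 14.45%). In the other 3 libraries it was 4.651% to 5.505%, on 4 to 6 counts each. In mice, Ighv12-3 paired with Igkv4-91 is known from B-1 cell antibodies to phosphatidylcholine. Both were among the leading V genes of aged replicate 2, but bulk counts do not show which heavy and light chains share a cell.

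Then followed Ighv14-4 with 503 counts, Ighv1-26 with 487 and Ighv1-64 with 474 in aged replicate 2. Ighv1-55 (430 counts) and Ighv1-72 (392) were abundant there without a count in the other 3 libraries. The Ighv1 family, the largest of the mouse, took 54.65% and 64.14% of heavy V counts in the aged libraries, against 53.54% and 47.71% in the young. In all, 48 of the 110 V genes share at least 1 window of 100 bases with another gene and 27 are at least 95% identical to another V gene of the table, so single-gene values within the Ighv1 and Igkv4 families are less certain than family sums. Lambda V counts came mainly from Iglv1, with 19 of 22 and 623 of 830 in the aged libraries, against 5 of 9 and 7 of 13 in the young.

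The leading genes of aged replicate 2 were partly those of the other libraries. Of its 5 leading kappa V genes, 3 were also among the 5 of each other library, and of its 5 leading heavy V genes 2 were in aged replicate 1, and 3 and 1 in the young libraries. Ighm in the other libraries stood at 1.38% to 1.52% of its CPM in aged replicate 2, Igkc at 1.16% to 1.25% and Igkv3-2 at 0.308% to 0.468%. By contrast Igha stood at 40% to 61.5% and Ighd at 5.9% to 12.9%. Whether reads passed between libraries was not tested.

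**Figure D4:**
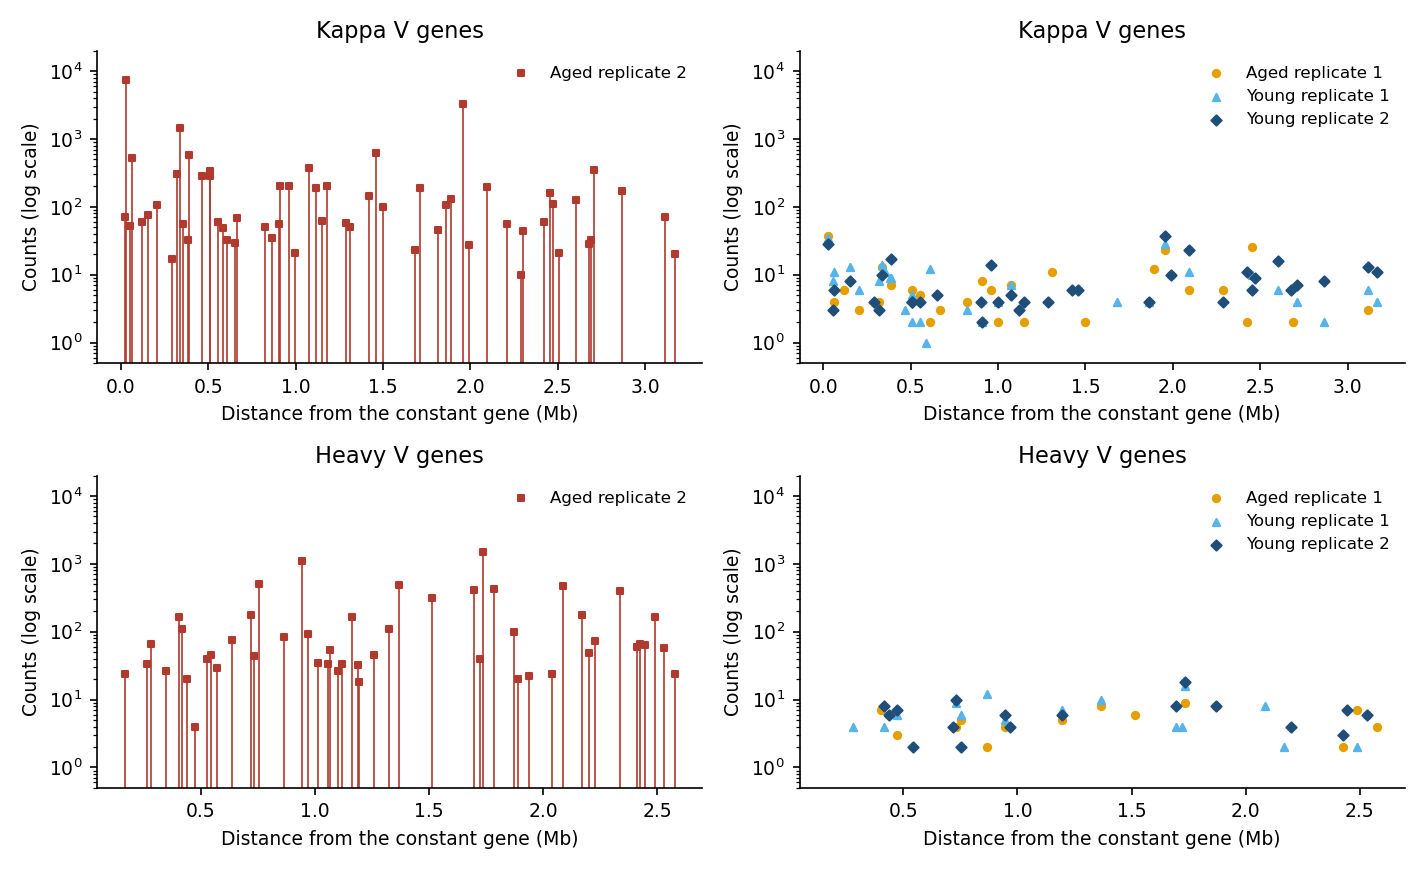
Counts on a log scale (vertical axes) of kappa V genes (upper row) and heavy V genes (lower row) by distance from Igkc or Ighm in megabases (horizontal axes), in aged replicate 2 (left) and in the other 3 libraries (right, genes with a count only). Counts in aged replicate 2 come from V genes over the whole length of both loci, with the highest kappa peak 27.37 kb from Igkc.

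Counts came from V genes along both loci. The kappa V genes lay 22.26 to 3170 kb from Igkc and the heavy V genes 165.5 to 2577 kb from Ighm. Igkv3-2 sits near the constant gene, at 27.37 kb, and Igkv4-91 at 1957 kb. Weighted by counts, the mean distance of kappa V genes was 1197 and 808.8 kb in the aged libraries, against 956.7 and 1529 kb in the young. For heavy V genes it was 1435 and 1459 kb, against 1225 and 1348 kb. Kappa V genes of the mouse lie in either orientation, and recombination then proceeds by deletion or inversion. Genes on the strand of Igkc took 42% and 50.6% of kappa V counts in the aged libraries, against 49.6% and 44.7% in the young. The values of aged replicate 1 and the young libraries rest on the 226 to 313 kappa and 86 to 109 heavy V counts of those libraries.

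Genes of B cells and plasma cells other than the antibody genes were also high in aged replicate 2, by less. All 20 mature B-cell genes listed were highest there. They summed to 14.15 and 151.8 CPM in the aged libraries, against 20.62 and 20.43 CPM in the young, so aged replicate 2 was 7.4-fold above the young mean and aged replicate 1 0.689-fold. Cd79a, a signalling chain of the B-cell receptor, had 34 and 426 counts in the aged libraries against 53 and 64 in the young. Ms4a1, which encodes CD20, had 42 and 745 against 49 and 37. Of the 5 genes tested none passed with edgeR (0 at an unadjusted p below 0.05, 0 with DESeq2), with a median log2 fold change of 2.46. Without aged replicate 1 all 5 passed as higher, against 17.4% of all tested genes. Without aged replicate 2 the median was -0.72, all 5 fold changes were negative and 1 passed as lower (Ly6d, adjusted p = 0.0365), against 17.8% of all tested genes. Ly6d, a surface protein of lymphocytes, had 0 and 169 counts in the aged libraries against 23 and 9 in the young.

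The ratio of antibody to B-cell RNA was itself higher in aged replicate 2. Ighm counts per Cd79a count were 28.4 and 152 in the aged libraries, against 19.2 and 18.9 in the young. Jchain counts per Cd79a count were 5.18 and 12.5, against 2.36 and 2.48, so both aged libraries lay above both young ones. Mzb1, an endoplasmic reticulum protein that assists IgM assembly, had 42 and 579 counts in the aged libraries against 112 and 109. Derl3, of the secretory pathway, had 0 and 209 against 21 and 9, and Irf4, a transcription factor of plasma cell differentiation, had 58 and 527 against 46 and 59. Pou2af1, a B-cell coactivator, had 31 and 720 against 35 and 77.

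Of the 16 plasma cell genes, 14 were highest in aged replicate 2, and 4 of the 7 tested rose (Xbp1, Sdc1, Txndc5 and Ell2) with 0 lower (edgeR; 0 lower at an unadjusted p below 0.05 and with DESeq2), against 20.1% and 17.5% of all tested genes. These 4 are broadly expressed and had 638 or more counts in every library, apart from Sdc1 with 724 and 680 in the aged libraries against 395 and 576. Their log2 fold changes ran from 0.31 ± 0.08 (Xbp1, a regulator of secretory capacity, adjusted p = 0.0223) to 0.90 ± 0.11 (Ell2, an elongation factor, adjusted p = 0.00279). The median of the list was 0.63, against 0.01 over all tested genes. Without aged replicate 2, 3 passed as higher and 1 as lower, against 20.9% and 17.8% of all tested genes. Xbp1 then missed the threshold (0.25, adjusted p = 0.0681) and Mzb1 was the gene called lower (-1.35, adjusted p = 0.0322). Without aged replicate 1 all 7 passed as higher. Prdm1, a regulator of plasma cell fate, had 94 and 210 counts in the aged libraries against 272 and 280 in the young.

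**Figure D5:**
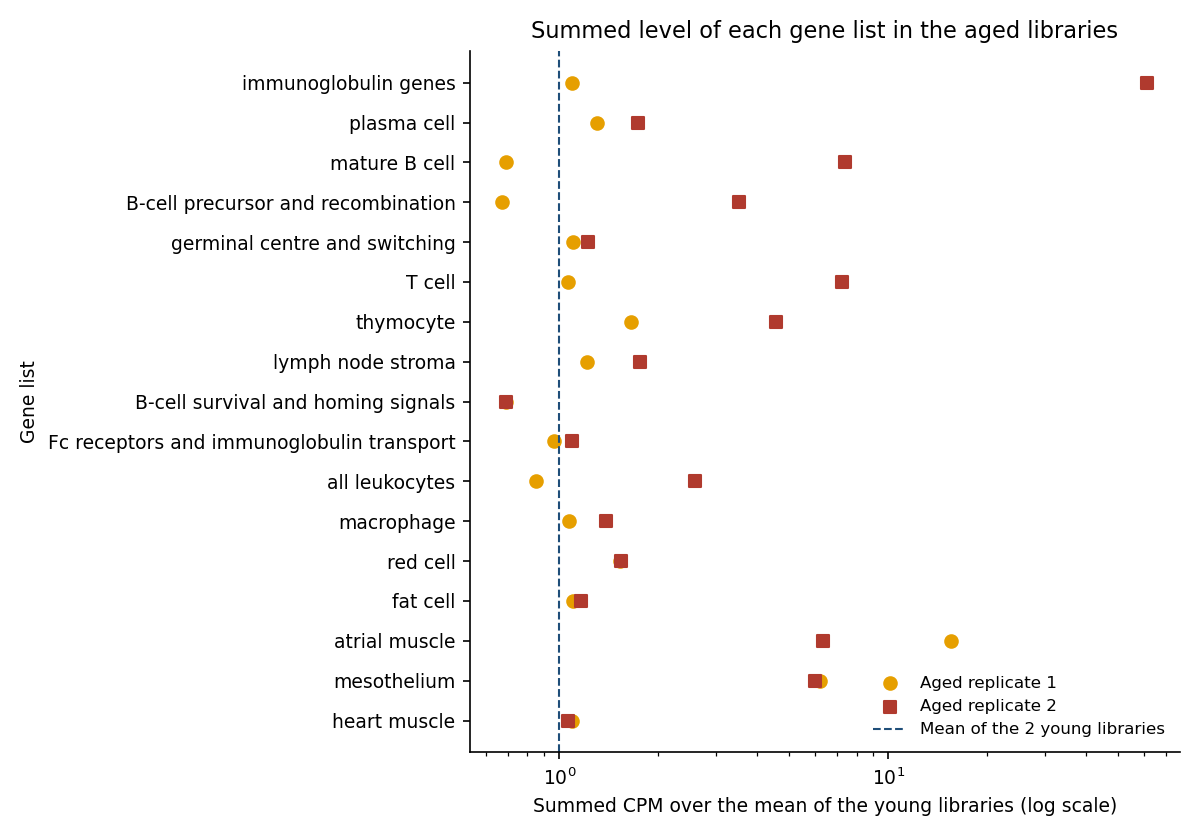
Summed CPM of each gene list in aged replicates 1 and 2 over the mean of the 2 young libraries (horizontal axis, log scale; dashed line at the young mean), with the gene lists on the vertical axis. Immunoglobulin, mature B-cell and T-cell genes are high only in aged replicate 2, while atrial and mesothelial genes are high in both aged libraries.

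Markers of other cells that a heart sample may hold moved with the antibody genes in part. All 15 T-cell genes were highest in aged replicate 2, and summed to 7.21-fold the young mean there and 1.06-fold in aged replicate 1. The 2 T-cell genes tested, with a median log2 fold change of 2.41, did not pass (edgeR; 0 at an unadjusted p below 0.05, 0 with DESeq2). Without aged replicate 1 both passed as higher, and without aged replicate 2 Trbc2, a T-cell receptor constant gene, passed as lower (adjusted p = 0.0391). The 7 pan-leukocyte genes were 2.58-fold the young mean in aged replicate 2 and 0.851-fold in aged replicate 1, and 10 macrophage genes 1.39-fold and 1.07-fold. Of the 5 pan-leukocyte genes tested none passed with edgeR (0 at an unadjusted p below 0.05), and DESeq2 called 1 higher. Without aged replicate 1 all 5 passed as higher, and without aged replicate 2 Cd52, a surface protein of lymphocytes, passed as lower (-1.63, adjusted p = 0.00732). Thymocyte genes were 4.54-fold and 1.65-fold, B-cell precursor genes 3.52-fold and 0.671-fold, and lymph node stroma genes 1.76-fold and 1.21-fold. The largest part of the stroma sum was Ccl21a, with 18.79 and 15.86 CPM in the aged libraries against 16.27 and 16.64 in the young. Cxcl13 of the same list had 1.48 and 8.962 CPM against 0.2648 and 0.06267, and Ccl19 0.6858 and 2.026 against 0.3216 and 0.3133. In aged replicate 2, 5 of 7 thymocyte, 5 of 9 B-cell precursor and 4 of 6 lymph node stroma genes were highest. Tcf7 of the thymocyte list had 68 and 426 counts in the aged libraries against 38 and 73 in the young. Il7r of the precursor list had 87 and 419 against 61 and 71. The recombination genes of these 2 lists were near the floor. Rag1 had 0 and 19 counts in the aged libraries against 20 and 23 in the young. Rag2 had 0 and 0 against 6 and 0, and Dntt 0 and 4 against 4 and 4. The part of other tissue in the samples was not tested.

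Genes for signals that draw or sustain B cells were called in both directions. Cxcl13, a chemokine that attracts B cells, had 82 and 460 counts in the aged libraries against 14 and 4 in the young, and rose by 4.97 ± 1.06 on the log2 scale (edgeR adjusted p = 0.0146). Without aged replicate 2 its log2 fold change was 3.20. Vcam1, an adhesion molecule for lymphocytes, rose by 0.80 ± 0.09 (adjusted p = 0.00241), while Cxcl12, which retains plasma cells in bone marrow, fell by 0.88 (adjusted p = 0.00173). Of the 8 genes of this list, 5 were tested, with 2 called higher and 1 lower (20.1% and 17.5% over all tested genes), as was also the count without aged replicate 2. Of the 5 tested Fc receptor and antibody transport genes, none was called with edgeR (1 higher and 1 lower at an unadjusted p below 0.05), and DESeq2 called 1 higher and 0 lower. Without aged replicate 2, Trim21, a cytosolic antibody receptor, passed as lower (-0.84, adjusted p = 0.0356). Among germinal centre and switching genes, 1 of 4 tested was called higher, against 20.1% of all tested genes. It was Bcl6, a repressor also expressed outside B cells, which rose by 0.66 ± 0.10 (edgeR adjusted p = 0.00518). Without aged replicate 2 its log2 fold change was 0.64.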

How the data were processed

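Poly(A) RNA of whole mouse hearts was sequenced in 2 libraries at 12 months and 2 at 8 weeks. Per the submitters' processing notes, the tools were StringTie 2.1.6, HISAT2 2.2.1 and cutadapt 1.9, besides edgeR and DESeq2, on build GRCm38. How reads mapping to several genes were treated, and the strand setting, is not given in the sources used here. Per the file headers, the authors deposited an FPKM value and an estimated count per gene and library. The deposited expected counts were whole numbers and were used as they stand. FPKM is used only to set the test minimum and to compare levels per length. No column (0) lacked a sample.

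CPM scales a count to the total of its library (51328364 to 63828074 counts), and a count of 0 allows 3 counts. Genes with a mean FPKM of at least 1 (12027) were tested with edgeR 4.0.16 in R 4.3.3 (quasi-likelihood, TMM scaling, age as the only term, two-sided, 12 months minus 8 weeks, Benjamini-Hochberg adjustment over all tested genes, called below 0.05). The SE of a log2 fold change was derived from it and its F statistic. The residual degrees of freedom were 2. Shares carry 95% Wilson intervals, which with all floors cover counting error only. Alternatives were DESeq2 1.42.0, DESeq2 size factors, limma 3.58.1 on log2(FPKM + 1) or log2(FPKM + 0.1), other minimums and leaving out each library, which leaves a single one in its group. Shared sequence was counted as 100-base windows found exactly in transcripts of other genes (GENCODE M21). Of the 132 genes, 6 overlap another gene in sense and 0 in antisense. Python 3.11.15 with pandas 2.3.3 and matplotlib 3.10.9 drew the figures.

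The members and gene lists were chosen with earlier results of these data known. Named genes are the constant genes and Jchain, the 5 leading V genes of each chain and library, genes next to the minimum, all plasma and mature B-cell list genes and up to 4 called genes of each other list. The J genes, Ighv1-55, Ighv1-72, Igkv12-44, Ighv1-42, Ighe, Rag1, Rag2, Dntt, Tcf7, Il7r, Trbc2, Cd52, Trim21, Plin1 and Lpl were named after their values were seen. So were Ccl19 and Ccl21a. Some list genes are not reported here.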

Additional observations from a re-analysis of the deposited data

How the results depend on the processing

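The number of immunoglobulin genes called higher at 12 months, 9 of 70, depended on the setting. It was 3 of 132 with a summed count of at least 20 in place of the FPKM minimum, 2 of 132 with no minimum, 1 of 70 in each limma fit and 30 of 70 with DESeq2. Leaving out 1 library gave 0 (without young replicate 2, with 6 at an unadjusted p below 0.05) to 69 (without aged replicate 1), and 0 to 3 called lower. The fit with a summed count of at least 20 and without aged replicate 2, chosen after seeing the data, called 1 higher. Over all genes, 2416 higher and 2104 lower became 3797 and 1095 with rescaled FPKM, and ran over 1187 to 2514 and 890 to 2144 with 1 library left out. The log2 ratio of summed CPM, 4.96, ran from 0.12 (without aged replicate 2) to 5.94 with 1 library left out. Shares of FPKM moved IgM to 75.87% and 74.96% and IgG2c to 5.284% and 4.005% in young replicates 1 and 2, and IgA to 11.91% in young replicate 2. The cause was not tested. With 1 library left out, the log2 fold change ran from -0.15 to 5.97 for Ighm, -1.12 to 2.90 for Ighd, -0.40 to 0.87 for Igha, -6.91 to 6.69 for Ighg3, -0.94 to 4.92 for Iglc1, -0.54 to 6.28 for Iglc2, -2.45 to 3.87 for Iglc3, -0.44 to 6.77 for Igkv4-91, -0.85 to 6.56 for Ighv1-53 and -0.39 to 7.74 for Ighv12-3, negative in each case without aged replicate 2, where each gene has its highest count. Over all companion lists together, 38 genes called higher ran from 27 to 54 and 8 called lower from 7 to 12 over the alternatives. Single lists moved more: without aged replicate 1, genes called higher went to 5 for mature B cells, 2 for T cells and 5 for leukocytes, each 0 with all libraries, and to 7 for plasma cells, against 4. No paired analysis was possible because the library titles of the 2 ages share fewer than 2 numbers and the labels pair no libraries. With 2 libraries a group and 1 of them holding nearly all antibody counts, heavy and kappa V and J shares of the other 3 rest on 10 to 313 counts.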

Other observations

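Outside the antibody genes, other genes with a mean of at least 1 FPKM also stood highest in aged replicate 2, named here after their values were seen. Bmp10, a growth factor of atrial muscle, had 46 and 1945 counts in aged replicates 1 and 2, against 6 and 15 in young replicates 1 and 2, and stood 45.6-fold above the next library. The other atrial genes did not share this order: Myl7, an atrial myosin light chain, had 32695 and 15849 counts in the aged libraries against 1019 and 325 in the young. Trbc2, a T-cell receptor constant gene, had 0 and 205 counts in the aged libraries against 10 and 10 in the young. Gimap3, a GTPase of lymphocytes, had 122 and 984 against 57 and 113, and Ccl5, a T-cell chemokine, 6 and 175 against 14 and 35. Pla2g2d, a secreted phospholipase of lymphoid tissue, had 58 and 429 against 70 and 38. H2-Aa, a class II antigen-presenting chain of B cells and other presenting cells, had 1357 and 4205 against 1586 and 1967, the smaller excess of 2.66-fold over the next library.

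Red cell genes summed to 1.53-fold and 1.54-fold the young mean in aged replicates 1 and 2, so neither aged library exceeded the other by much. Of 10 fat cell genes tested, 7 were called higher and 2 lower at 12 months with edgeR (20.1% and 17.5% over all tested genes), with a median log2 fold change of 3.70, and 7 and 1 without aged replicate 2. Plin1, a lipid droplet coat protein, had 1159 and 1135 counts in the aged libraries against 36 and 29 in the young. The summed level of the list was nonetheless only 1.1-fold and 1.16-fold the young mean, since Lpl, a lipase also made by heart muscle, held most of its counts (201006 and 196483, against 157852 and 210900). Ucp1, the uncoupling protein of brown fat, had 5401 and 925 counts in the aged libraries against 67 and 34 in the young, so it was highest in aged replicate 1.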
